A study of Mus musculus with 120 samples.

Results

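Gkn1, Gkn2 and Pga5 encode secreted proteins best known from the lining of the stomach, and they were read here in mouse embryonic stem cells that carry an enhancer deletion and in dissected embryos. The 3 genes were taken by name, out of 23154 genes in each count table, and they were picked with the levels in deleted and unedited cells in view. Their cell values are therefore given as a description with no test, and only the embryo values were tested. Cells were of the E14/TG2A embryonic stem cell line, either unedited (WT) or with the enhancer called Enh9E removed by CRISPR-Cas9 (KO), and each was sequenced undifferentiated (D0) and on day 8 of neural differentiation (D8), with 2 WT and 3 KO libraries per day. Embryos of the ICR strain, taken from day 6.5 (E6.5) over E7.0 to E7.5, gave 9 groups of 2 libraries: an extra-embryonic part (ExE) at every stage, the epiblast side (Epi) at E6.5, regions A and P at E7.0, and regions A, AM and P at E7.5. The labels give no number of KO clones, no position of Enh9E and no target gene, so the deletion itself was not checked and clone differences cannot be told apart from it. Nothing in the labels says that replicates were separate cultures or embryos, and a p-value here reflects only how far these libraries scatter, which may be technical.

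Gastrokines are small proteins with a BRICHOS domain, a fold that keeps other parts of a protein from clumping, and the mucous cells of the stomach surface release them into the gastric mucus. Gkn1 and Gkn2 are known as markers of differentiated stomach epithelium that are lost in gastric tumours. Pga5 encodes a pepsinogen, the inactive precursor of the acid-activated protease pepsin, and RefSeq also lists it as Pepf. None of these products is a usual marker of embryonic stem cells or of neural progenitors.

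In the cells all of these genes stood far higher in KO than in WT at D8, and both gastrokines had almost no counts at D0. CPM here means counts per M counts, scaled by the trimmed mean of M values (TMM), and levels are not compared between genes because no transcript lengths were used. The plot of levels by group shows each library.

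**Figure D1:**
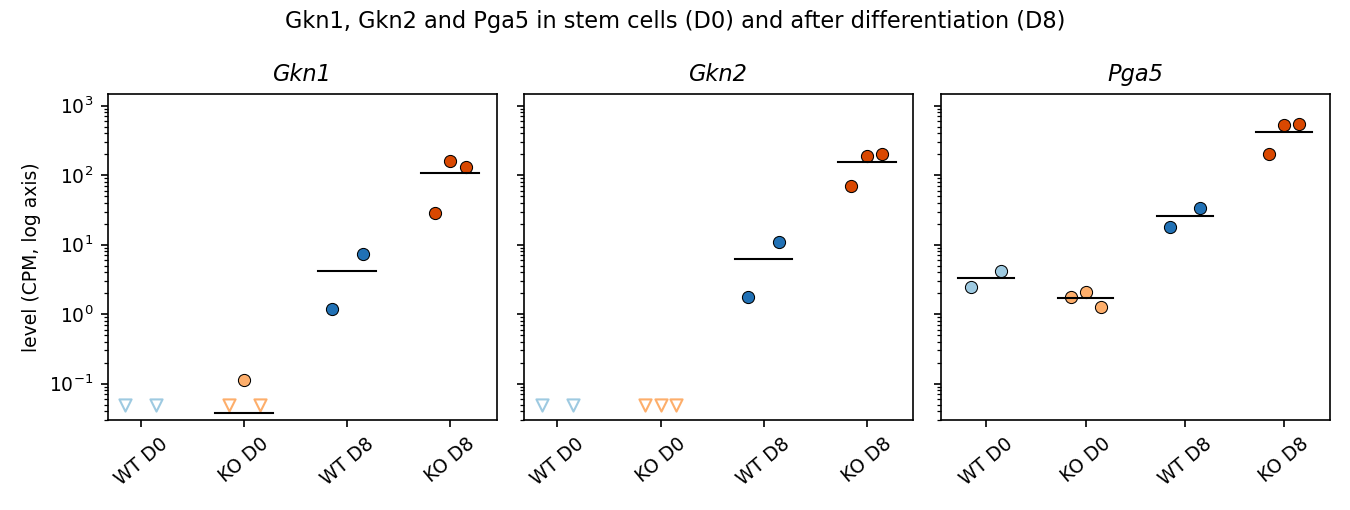
Level of Gkn1, Gkn2 and Pga5 (CPM, log axis) in each library of the 4 cell groups. Points are libraries, bars are group means, and open triangles at the foot mark libraries with 0 counts. At D8 every KO library lies above every WT library for each gene, and the 2 WT libraries of each gastrokine lie 6.10- to 6.17-fold apart.

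Gkn1 lies on chromosome 6 at 87345653 to 87350915 on the minus strand, and Gkn2 at 87373365 to 87379494 on the plus strand (GRCm38.p6), so that they point away from each other across 22.5 kb. Both genes were high in the same libraries, and for that reason the 250 bases before the start of each are printed, from RefSeq with that build, with matches to searched motifs in capitals. In Gkn1 (chr6:87350916-87351165, minus strand) the capitals mark AGATAA, which factors of the GATA family bind. In Gkn2 (chr6:87373115-87373364, plus strand) they mark AGATAA first, and further on TATAAA, where the basal transcription machinery binds.
Gkn1: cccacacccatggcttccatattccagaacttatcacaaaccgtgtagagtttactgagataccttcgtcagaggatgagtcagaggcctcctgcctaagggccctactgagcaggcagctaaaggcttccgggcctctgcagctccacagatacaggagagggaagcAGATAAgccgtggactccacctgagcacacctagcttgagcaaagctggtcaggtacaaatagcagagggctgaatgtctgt
Gkn2: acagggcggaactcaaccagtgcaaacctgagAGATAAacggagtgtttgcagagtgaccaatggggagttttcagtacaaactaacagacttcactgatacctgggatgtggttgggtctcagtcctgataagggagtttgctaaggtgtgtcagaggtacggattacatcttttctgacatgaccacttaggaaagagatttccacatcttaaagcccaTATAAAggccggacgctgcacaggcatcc
Counted from the start site, AGATAA begins at position -82 in Gkn1 and at -218 in Gkn2, while TATAAA begins at -29 in Gkn2. Of 32851 windows of this length in the RefSeq promoter table, 10.0% hold AGATAA and 12.4% hold TATAAA on either strand. Neither TGTTTAC, the forkhead core (3.2% of windows), nor ACAAAG, a Sox motif (16.5%), was found on either strand of these 2 windows. The motifs do not overlap each other, and a match is a string of letters, not a binding site. Gkn3, the neighbouring gastrokine, had ACAAAG alone of these motifs, at position -142.

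Gkn1 had 0 counts in both WT libraries at D0 and 0, 1 and 0 counts in the KO libraries. At D8 it had 8 and 68 counts in WT, or 1.18 and 7.29 CPM, and 274, 1570 and 1291 counts in KO, or 28.9, 161 and 130 CPM. The groups did not overlap at D8, with KO replicate 1 the lowest of its group and WT replicate 1 the lower of the WT pair. The means were 4.24 ± 4.32 CPM in WT (SD, n = 2) and 107 ± 69.3 CPM in KO (SD, n = 3), and the fitted log2 difference was 4.58 ± 0.80 (standard error), or 23.9-fold. The lowest KO library was still 3.97-fold above the highest WT library.

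Gkn2, which is known to be secreted with the trefoil factor Tff1, had 0 counts in all 5 D0 libraries. A count of 0 allows up to 0.200 CPM over the WT group and 0.107 CPM over the KO group at D0, taking 3 counts as the limit and covering counting error only. At D8 it had 12 and 101 counts in WT, or 1.77 and 10.8 CPM, and 659, 1833 and 2027 counts in KO, or 69.6, 188 and 205 CPM. As for Gkn1, KO replicate 1 was the lowest KO library, WT replicate 2 the higher WT library, and the groups did not overlap. The means were 6.30 ± 6.40 CPM in WT (SD, n = 2) and 154 ± 73.7 CPM in KO (SD, n = 3), and the log2 difference was 4.55 ± 0.72, or 23.4-fold. Without WT replicate 2 these log2 differences were 6.42 for Gkn1 and 6.37 for Gkn2.

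Pga5, on chromosome 19 at 10668957 to 10678071, differed from the gastrokines in being counted at D0. It had 20 and 29 counts in WT at D0, or 2.47 and 4.20 CPM, and 12, 18 and 16 counts in KO, or 1.78, 2.06 and 1.27 CPM. There the KO libraries were the lower group and did not overlap with WT (log2 difference -0.98 ± 0.63). How many of all genes show such a gap at D0 was not counted, so no more is read from it. At D8 it had 120 and 316 counts in WT, or 17.7 and 33.9 CPM, and 1933, 5207 and 5327 counts in KO, or 204, 535 and 538 CPM. The order was turned, with all KO libraries above both WT libraries and KO replicate 1 again the lowest of its group. The means at D8 were 25.8 ± 11.4 CPM in WT (SD, n = 2) and 426 ± 192 CPM in KO (SD, n = 3), with a log2 difference of 4.03 ± 0.45, or 16.4-fold. The difference between the D8 and D0 differences was 5.02 ± 0.76 on the log2 scale, a contrast in which 5.76% of the 14629 tested genes were called.

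Read over time, the genes were also higher at D8 than at D0 in cells that keep the enhancer. Pga5 was 7.87-fold higher at D8 in WT (log2 2.98 ± 0.53) and 255-fold higher in KO (log2 7.99 ± 0.49). Gkn1 was at least 21.2-fold higher at D8 in WT, against the limit of 3 counts over the D0 group, and no fold is given in KO, where D0 held 1 count. Gkn2 was at least 31.5-fold higher in WT and at least 1446-fold higher in KO. Without WT D8 replicate 2 the WT bounds were 5.92-fold for Gkn1 and 8.88-fold for Gkn2. The KO and WT comparisons at a day and the D8 and D0 comparisons use the same libraries, so these values are not separate evidence. Since these are bulk libraries, more cells that make a transcript and more of it per cell cannot be told apart.

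For scale, 14629 genes were tested in cells with edgeR's quasi-likelihood test, all members among them, and 20.8% of them were called at an adjusted p under 0.05 between KO and WT at D8, 12.5% higher and 8.24% lower. At D0 0.273%, or 40 genes, were called, a number that ran from 3 to 2033 over the alternatives. In 25.3% of tested genes every KO library lay above every WT library at D8, so that feature by itself is common, whereas 1.05% were over 8-fold higher. Ordered by log2 difference, Gkn1 was number 25 and Gkn2 number 26, between Mogat1, at 4.61, and Ptgfr, at 4.52, and Pga5 was number 51. Because the members were chosen on these values, no more is read from the ranks. The median log2 difference of all tested genes at D8 was 0.02 with TMM scaling and -0.18 with total counts alone, and the share of called genes that were higher was 60.4% and 37.7%. Scaling by DESeq2's size factors gave a median of -0.06 and 48.1%.

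Within the D8 libraries the members kept a similar order. The ratio of Gkn1 to Gkn2 counts was 0.667 and 0.673 in WT, and 0.416, 0.857 and 0.637 in KO. The ratio of Pga5 to Gkn2 was 10.0 and 3.13 in WT, against 2.93, 2.84 and 2.63 in KO. WT replicate 1, which had the fewest Gkn2 counts, was the library with the highest ratio. Across the 10 cell libraries the correlation of log2(CPM + 1) was 0.995 for Gkn1 with Gkn2, 0.983 for Gkn1 with Pga5 and 0.990 for Gkn2 with Pga5. These points fall into D0 and D8 clusters and share their libraries, and over the 5 D8 libraries alone the values were 0.989, 0.986 and 0.990.

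Other genes followed the same pattern closely. By correlation over the 10 libraries, the 5 nearest to Gkn2 were Gm4980 (0.998), Cdh5 (0.996), Ptk6 (0.996), Gkn1 and Plbd1 (0.995). Cdh5 is the adhesion protein VE-cadherin of endothelium, and Ptk6 a tyrosine kinase of epithelia. Those nearest to Gkn1 were Gkn2, Plbd1 (0.994), Lpar3 (0.994), Cdh5 (0.994) and Gm4980 (0.993), of which Lpar3 is a receptor for lysophosphatidic acid. Those nearest to Pga5 were Vstm4 (0.996), Bmper (0.993), Gkn2, Igsf1 (0.988) and Glipr2 (0.988), and Bmper binds and tempers bone morphogenetic proteins. The lists of the gastrokines share Cdh5, Gm4980 and Plbd1, a phospholipase-like gene also on chromosome 6, and the lists of Gkn1 and Pga5 share Gkn2. In level, Cdh5 went from 3.52 CPM in WT to 29.9 in KO at D8, and Bmper from 8.23 to 76.1.

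Neighbours of the members were read next. The members were chosen on their D8 values, so smaller differences in other genes follow from that choice and are not a finding. Gkn3, the other gastrokine gene of this stretch, had 1, 0 and 1 counts in KO and 0 in WT at D0, and 0 in KO and 0 and 2 in WT at D8. It was too low to test, as was Bmp10, a ligand of heart development. Of the 10 RefSeq entries around the gastrokines 6 were in the table. At D8, where 20.8% of all tested genes were called, none of the 3 tested entries was. These were Antxr1, an anthrax toxin receptor (0.28 ± 0.34), Arhgap25 (0.76 ± 0.70) and Prokr1, a prokineticin receptor (0.78 ± 0.54), with a median of 0.76. Within 500 kb of Gkn2, 10 other genes were tested, 5 were called higher and none lower, and their median was 0.76. Over all tested genes 12.5% were higher and 8.24% lower. Chromosome 6 as a whole stood above 0, with medians of 0.30 at D0 and 0.45 at D8 over 715 genes, and so did chromosome 14 (0.47 and 0.50) and, less far, chromosome 11 (0.20 and 0.24), while chromosome 19 stood at -0.03 and 0.04 over 496 genes. The part of the chromosome 6 shift in the gastrokine values was not tested.

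Around Pga5, 6 of the 10 neighbouring entries were tested and 1 was called, against 20.8% of all tested genes. Vps37c, a subunit of the endosomal sorting complex ESCRT-I, rose from 20.7 to 47.2 CPM in KO at D8 (log2 1.19 ± 0.26, edgeR adjusted p = 0.0103). It was lost without WT replicate 1 (0.91, edgeR adjusted p = 0.129). On the other side Ddb1, a DNA damage recognition subunit, stood at -0.07 ± 0.14, Tkfc at 0.02 ± 0.17 and Cyb561a3 at 0.07 ± 0.24, none of which passed. The median of the 6 was 0.01. In the window of 500 kb on each side, 23 genes were tested, with 5 higher, 3 lower and a median of 0.07. The shares over all tested genes were 12.5% higher and 8.24% lower.

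**Figure D2:**
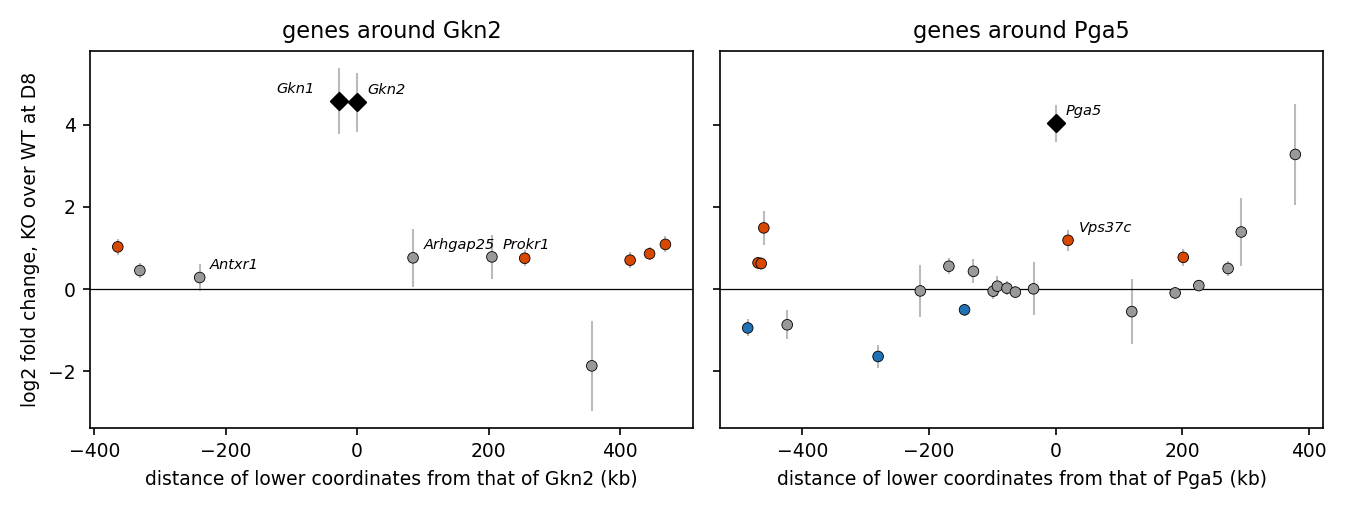
Log2 fold change of KO over WT at D8 with its standard error (vertical axis) against the distance of each gene's lower coordinate from that of Gkn2 or Pga5 (horizontal axis, kb), for tested genes within 500 kb. Diamonds are the members, red points were called higher, blue lower and grey neither. The members stand at 4.03 to 4.58 and were chosen on these values, so their place above the other genes follows from that choice. The nearest called neighbour of Pga5 is Vps37c at 1.19.

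The name stomach-type was checked against other products of the stomach, a list of mucins, acid pump subunits, hormones and enzymes. The table held 26 of them, of which 10 could be tested. At D8 their median was -0.17 and, against 12.5% of all tested genes, 1 of the 10 rose. That gene was Dpcr1, which encodes a mucin-like membrane protein and went from 2.92 to 68.9 CPM (log2 4.49 ± 0.78, edgeR adjusted p = 0.00368). Muc5ac and Muc6, the gel-forming mucins of the stomach, did not pass (-0.09 ± 0.60 and -0.43 ± 0.60). Tff1, the trefoil peptide of the surface mucous cells, had 0 counts in every cell library, and the highest level of Gif, the gastric intrinsic factor, was 0.686 CPM. In all, 14 of the 26 never exceeded 1 CPM in any cell library. The summed level of the list at D8 was 36.5 and 25.2 CPM in WT and 36.5, 124 and 120 CPM in KO, so the groups overlapped. A stomach identity of the cells is thus not borne out by these markers, and the members are called by their names here. Intestine markers were low as well, with summed levels of 3.54 to 9.77 CPM at D8. Of 5 tested none passed, where 20.8% of all tested genes did. Among the 5 were the homeobox genes Cdx1 (0.12 ± 2.06) and Cdx2 (1.51 ± 0.66).

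Relatives by structure were read in KO against WT at D8 as well. Their smaller log2 differences beside the members follow from how the members were chosen. Among BRICHOS domain genes 3 of 8 were tested and Itm2b, an integral membrane protein cleaved by furin, rose (1.12 ± 0.22, edgeR adjusted p = 0.00662). Itm2a and Itm2c did not pass (0.41 ± 0.23 and 0.09 ± 0.16). Among aspartic proteinases, the enzyme class of pepsin, 5 of 9 were tested, with 2 higher, 1 lower and a median of 0.92. For both lists, the shares over all tested genes were 12.5% higher and 8.24% lower. Ctsd, the lysosomal cathepsin D, rose by 0.92 ± 0.19 and Bace2, a beta-secretase, by 3.03 ± 0.62 (edgeR adjusted p = 0.00738 and 0.00762). Pgc, the other classic pepsinogen, stood at 1.35 ± 0.65 without passing, on 29 counts over all D8 libraries. Unlike Pga5 it was lower at D8 than at D0, from 9.47 to 0.329 CPM in WT and from 5.40 to 0.821 CPM in KO. Bace1, a close relative of Bace2, was lower in KO by 0.76 on the log2 scale (standard error 0.21, edgeR adjusted p = 0.0285). These calls rest on both WT libraries: Itm2b was lost without either, at adjusted p = 0.0623 and 0.059 in edgeR, no proteinase was called without WT replicate 1, and 1 was without WT replicate 2.

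Many regulators of foregut and stomach, which are shared with other endoderm, were higher in KO at D8. Of 21 tested 11 rose and 1 fell, with a median of 1.48 against 0.02 over all genes, of which 12.5% were higher and 8.24% lower. Gata4 and Gata6, zinc finger factors of endoderm and heart, were higher by 2.84 ± 0.29 and 2.89 ± 0.43, and Klf5 and Sox17 by 2.04 ± 0.26 and 3.04 ± 0.48 (edgeR adjusted p from 0.00088 to 0.0027). Klf5 itself fell from D0 to D8, from 212 to 7.98 CPM in WT and from 293 to 32.8 CPM in KO. From D0 to D8, 10 genes of the list rose and 5 fell in WT, and 12 rose and 5 fell in KO. Over all genes 27.9% rose and 29.3% fell in WT, and 33.4% rose and 31.1% fell in KO. Between the genotypes at D8, Onecut1, a liver and pancreas factor, was lower in KO by 2.85 on the log2 scale (standard error 0.80, adjusted p = 0.0295 in edgeR). It did not pass without WT replicate 1 (-0.55) or without KO replicate 2 (-2.50, edgeR adjusted p = 0.0609). Sox2 and Foxa1, which pattern the foregut, did not pass (-0.22 ± 0.21 and -1.61 ± 0.87). With total counts alone 6 were called higher and 1 lower. The number of higher calls was 6 without WT replicate 1, WT replicate 2 or KO replicate 3, and 7 without KO replicate 2.

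Genes of definitive and visceral endoderm, the embryonic and extra-embryonic gut layers, were higher in the same libraries. Of 18 tested 10 rose and none fell, against 12.5% of all tested genes higher and 8.24% lower, with a median of 1.15. Sox17, counted above, was joined by the keratins Krt8 (2.94 ± 0.50) and Krt18 (2.11 ± 0.43) and by the adhesion protein Epcam (1.19 ± 0.21, edgeR adjusted p = 0.00375). Epcam itself fell from D0 to D8 in both genotypes. Over that time 4 genes of the list rose and 5 fell in WT, and 10 rose and 3 fell in KO. Cer1 and Cxcr4 did not pass (-0.96 ± 1.21 and -1.05 ± 0.40), and the visceral marker Afp was too low to test. Summed levels at D8 were 280 and 250 CPM in WT and 589, 1120 and 1138 CPM in KO. At D0 they were 583 and 498.5 CPM in WT and 453, 496 and 478 CPM in KO. KO replicate 1 at D8 thus stood close to WT replicate 1 at D0. The list holds genes counted in undifferentiated cells, such as Apoe at 347.5 CPM in WT at D0. The count of rises was 3 without WT replicate 1, 6 without WT replicate 2 and 6 without KO replicate 3.

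Genes of parietal endoderm also stood higher in KO at D8. This is the layer that lays down the basement membrane around the early embryo. This list of 18 was written after endoderm values had been seen, and it is given without a test. In 17 of 18 every KO library was above every WT library at D8, with Prdm1 the exception, against 25.3% of all tested genes, and the median log2 difference was 2.76. Laminin and collagen IV genes were among them, with Lama1 at 323 CPM in WT and 2113 in KO, and Col4a1 at 672 and 3826. Srgn, a secreted proteoglycan core, went from 35.3 to 641 CPM. The summed level was 1655 and 3317 CPM in WT and 12290, 15070 and 21550 CPM in KO, against 1532 to 1961 CPM over all D0 libraries. Library by library the sum and Gkn2 took the same order, with WT replicate 1 lowest, then WT replicate 2, then KO replicates 1, 2 and 3. They did not rise in proportion, since the sum per unit of Gkn2 level was 933 and 306 in WT and 176.5, 80.0 and 105 in KO. Pga5 took the same order as the sum, but Gkn1 did not, with 161 CPM in KO replicate 2 and 130 CPM in KO replicate 3. The members were chosen on these values and the list after endoderm values were seen, so KO above WT follows from the choice. The endoderm sum above held the same order among the KO libraries, and how many genes do was not counted. Whether parietal endoderm cells were present, and their part in the levels of Gkn1, Gkn2 and Pga5, was not tested.

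**Figure D3:**
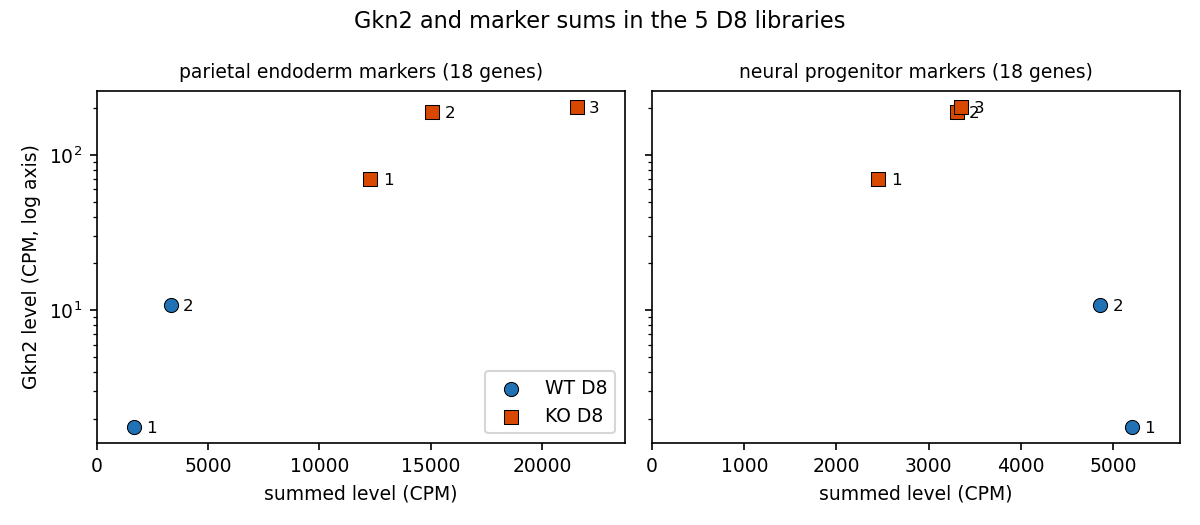
Gkn2 level (CPM, log axis) against the summed level of 18 parietal endoderm markers and of 18 neural progenitor markers (CPM) in the 5 D8 libraries, numbered by replicate. Gkn2 is lowest in the WT library with the smallest parietal sum, 1655 CPM, and highest in the KO library with the largest, 21550 CPM, while the KO libraries have the lower neural sums. KO above WT in Gkn2 and in the parietal sum follows from how both were chosen.

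Neural genes were checked because the D8 cells are labelled as neural progenitors. Of 18 tested, 17 rose from D0 to D8 in WT and 17 in KO, where 27.9% and 33.4% of all genes were higher. Between the genotypes at D8 none was higher and 7 were lower, against 12.5% and 8.24% of all tested genes, with a median of -0.92. The number lower was 10 with DESeq2's size factors and 11 with total counts. Dcx, a microtubule protein of young neurons, was lower in KO at D8 by 2.60 on the log2 scale (standard error 0.32). Neurog2 was lower by 2.33 (0.36), Tubb3 by 1.8 (0.33) and Nes by 1.39 (0.20). Sox1 and Pax6 did not pass (0.20 ± 0.39 and 0.16 ± 0.28). The summed level was 5203 and 4861 CPM in WT and 2453, 3302 and 3349 CPM in KO. Among the KO libraries, replicate 1 was thus the lowest in the neural sum as well as in the members.

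Naive pluripotency genes were checked for cells left undifferentiated. Of 12 tested 11 fell from D0 to D8 in either genotype, where 29.3% of all genes in WT and 31.1% in KO were lower. At D8 Klf4 (3.16 ± 0.42) and Tbx3 (2.0 ± 0.28) were higher in KO, with a median of 0.43 and none lower. These 2 of 12 stand beside 12.5% of all tested genes higher and 8.24% lower. Zfp42 and Nanog did not pass (0.70 ± 0.52 and 0.51 ± 0.78). Without KO replicate 1 there were 2 higher and 4 lower. The summed level of the list at D8 was 74.1 and 140 CPM in WT and 287, 172 and 191 CPM in KO. KO replicate 1, the lowest KO library in the members, was thus the highest here. Over all D0 libraries the sum was 7012 to 7657 CPM. Whether undifferentiated cells were left at D8 was not tested. The lists share members, such as Sox17 in the regulator, endoderm and parietal lists, and are not independent. At D0, where the gastrokines were near 0, the lists held 1 call in all, Vim, an intermediate filament gene, lower in KO (-1.65 ± 0.26, edgeR adjusted p = 0.0342). That call was lost when any 1 D0 library was left out. Over the alternatives, D0 calls reached 4 in the regulator list, 3 in the endoderm, 3 in the neural and 5 in the naive list. Those of BRICHOS genes reached 2, and the stomach, intestine and proteinase lists stayed at 0.

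**Figure D4:**
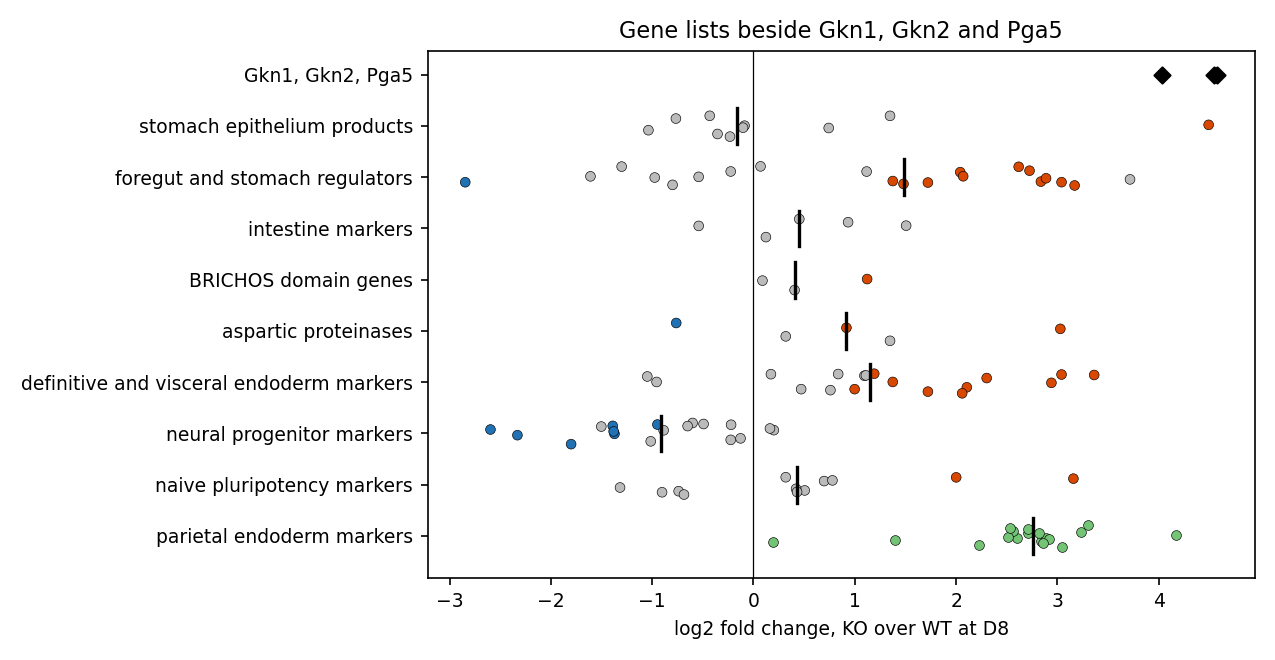
Log2 fold change of KO over WT at D8 for the tested genes of each list (horizontal axis), with the list's median as a bar. Red genes were called higher, blue lower and grey neither, diamonds are the members, and the parietal endoderm list in green had no test. The members lie from 4.03 to 4.58, beside Dpcr1 at 4.49, while the median of the stomach list is -0.17.

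In embryos the gastrokines were close to absent and Pga5 was not. Gkn1 had 0 to 9 counts per group of 2 libraries and Gkn2 0 to 3, and both were too low to test. The highest mean of Gkn1 was 0.558 CPM in E6.5 ExE, and that of Gkn2 was 0.270 CPM in E7.0 ExE. Pga5 passed the filter, as 1 of the 3 members among 14403 tested genes.

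At E6.5 Pga5 stood at 44.9 and 47.9 CPM in Epi and 23.0 and 26.6 CPM in ExE. At E7.0 it stood at 43.1 and 43.7 CPM in A, 16.7 and 5.58 CPM in P, and 30.7 and 7.38 CPM in ExE. At E7.5 it stood at 0 and 1.20 CPM in A, 19.3 and 27 CPM in AM, 0.863 and 3.54 CPM in P, and 3.66 and 5.54 CPM in ExE. Region A thus held the highest mean of its stage at E7.0 and the lowest at E7.5, when AM was the highest. In order of mean the groups ran from E6.5 Epi (46.4 CPM) over E7.0 A (43.4), E6.5 ExE (24.8), E7.5 AM (23.1), E7.0 ExE (19.0), E7.0 P (11.1), E7.5 ExE (4.60) and E7.5 P (2.20) to E7.5 A (0.598). The ranges of E6.5 ExE, E7.5 AM, E7.0 ExE and E7.0 P overlap from each to the next in that order, and so do those of E7.5 P and A.

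Of 7 contrasts in the embryo, 1 passed for Pga5. It rose in AM over A at E7.5, by 5.46 ± 1.08 on the log2 scale (edgeR adjusted p = 0.0193), in a contrast where 1.57% of genes were called and 1.15% were higher. Both AM libraries were above both A libraries, but the share of all genes with such a gap was not counted, so no more is read from it. The call was lost without A replicate 1 (4.22, edgeR adjusted p = 0.102), AM replicate 1 (5.64, edgeR adjusted p = 0.0623) or AM replicate 2 (5.15, edgeR adjusted p = 0.117). Without A replicate 2 the A side is at 0 counts, and the fitted 11.07 is then no bound. Against P, AM stood 3.45 ± 0.95 above without passing (edgeR adjusted p = 0.311), in a contrast with 0.111% of genes called. With no filter on low counts this contrast passed (3.52, edgeR adjusted p = 7.76e-09), as did P below A at E7.0 (-1.92, edgeR adjusted p = 0.0123). The latter stood at -1.94 ± 0.85 with the filter (edgeR adjusted p = 1), where 0.00694% of genes were called. Both log2 values hardly moved, so these passes are not read as larger differences. The shares of genes called are those with the filter.

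The remaining contrasts did not pass in edgeR with the filter. P minus A at E7.5, where 0.236% of genes were called, was 2.02 ± 1.1 (edgeR adjusted p = 0.791). ExE minus the embryonic part was -0.90 ± 0.83 at E6.5, -0.19 ± 0.72 at E7.0 and 0.64 ± 0.72 at E7.5 (edgeR adjusted p = 0.565, 0.88 and 0.579). The value at E7.0 turned to 0.45 without ExE replicate 2 and to 0.31 without P replicate 1. That at E7.5 was 2.49 without A replicate 2. There the A side is at 0 counts, so 2.49 is no bound. In these contrasts 8.93% of genes at E6.5, 18.2% at E7.0 and 21.3% at E7.5 were called.

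Endoderm markers also differed between the E7.5 regions that differ in Pga5. The summed level of the definitive and visceral endoderm list was 1425 and 2131 CPM in A, 7845 and 13980 CPM in AM, 2301 and 12020 CPM in P, and 17300 and 24440 CPM in ExE. It was thus highest in ExE, where Pga5 was below its AM level, and it was 5998 and 9014 CPM in E6.5 Epi, where Pga5 was highest. Within A the libraries stood apart, as replicate 1, with 0 counts of Pga5, had Ttr at 0.405 CPM and Cubn at 0.810 CPM, against 111 and 29.98 CPM in replicate 2. Both genes mark visceral endoderm. The part of endoderm in the Pga5 values of the embryo was not tested.

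**Figure D5:**
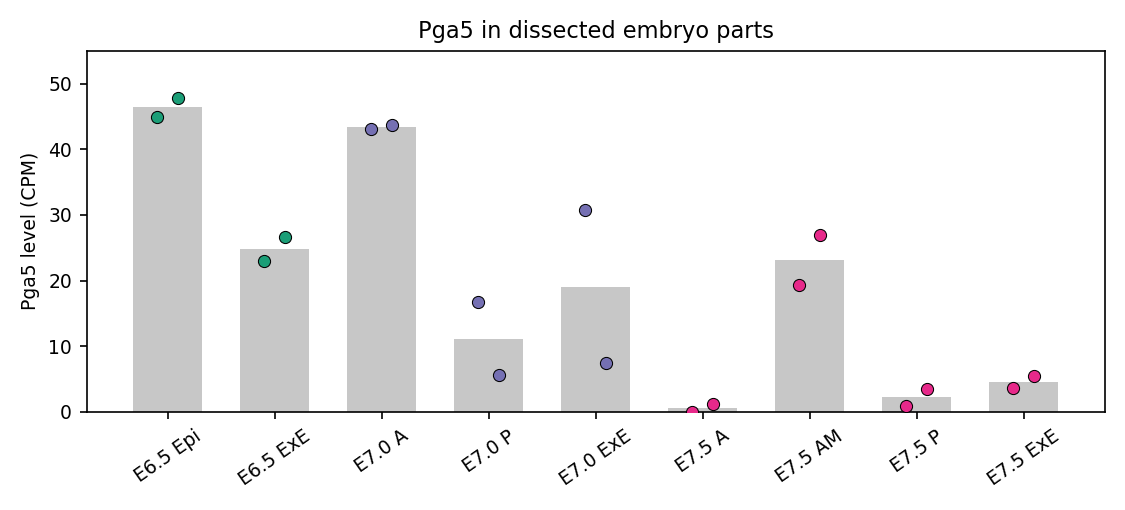
Pga5 level (CPM) in the 2 libraries (points) and their mean (bars, from 0) for each of the 9 embryo groups, with colour by stage. The highest means are in E6.5 Epi and E7.0 A, and at E7.5 AM stands at 19.3 and 27 CPM against 0 and 1.20 CPM in A.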

How the data were processed

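RNA was sequenced from 10 cell and 18 embryo libraries as polyA RNA. Values are whole-number counts per gene that the authors deposited, in 1 table for cells and 1 for embryos; each was fitted alone. Tools listed in the submitters' processing notes, without their roles, are BWA, TopHat2 2.0.9 and CASAVA 1.8, with the build mm10. How genes were counted, and whether by strand, is not given in the sources used here; overlapping genes may share counts. Per the labels' protocols, embryo RNA came from guanidine thiocyanate extraction and Nextera XT libraries, and cell RNA from Trizol and a NEBNext kit. A further 6 columns matched no sample and were not used. Total counts ran from 5.96 to 13.2 M per cell library and from 5.15 to 17.1 M per embryo library.

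Genes were kept by filterByExpr (minimum count 10, minimum total 15), scaled by TMM and fitted with edgeR 4.0.16 (robust quasi-likelihood, R 4.3.3), with Benjamini-Hochberg adjustment over all tested genes and a threshold of 0.05. All cell groups shared 1 fit and all embryo groups another. Standard errors are the log2 fold change over the root of the F statistic. CPM use the fit's library sizes over all genes. Likeness is Pearson's r of log2(CPM + 1). Members, lists and tests were chosen with earlier results of these data known, and the parietal list and the windows of 500 kb after seeing values. Named genes were the members, Gkn3, their 5 RefSeq neighbours on each side, the 5 most alike genes, and from each list the 4 strongest calls by p, the 2 strongest in the rarer direction and at most 2 not passing; Mogat1, Ptgfr, Bmp10, Tff1, Gif, Afp and the parietal genes were added after their values were seen. Alternatives were DESeq2 1.42.0, other scalings and filters, leaving out each library, the replicate number as a block, and only the groups compared. Gene positions and promoters are from RefSeq. The fit was tested on simulated counts.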

Additional observations from a re-analysis of the deposited data

Results flagged for a closer look

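The difference between KO and WT changed between D0 and D8 for several named genes, which is why they are listed here. For Pga5 the KO libraries lay below all WT libraries at D0 and above them at D8, and the change was 5.02 on the log2 scale. This change was not tested, since the gene was chosen on these values. The D0 difference was -0.98 ± 0.63 on 12 to 29 counts per library, and how common such a gap is at D0 was not counted. At D8 25.3% of all tested genes had every KO library above every WT library.

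By edgeR's interaction term, adjusted over all 14629 genes, the KO minus WT difference was larger at D8 than at D0 for 5 further genes, where 5.76% of genes were called. Gata4 changed by 2.11 ± 0.40 (edgeR adjusted p = 0.021), from 0.73 to 2.84, and Klf5 by 1.57 ± 0.33 (edgeR adjusted p = 0.0266). Klf4 changed by 2.47 ± 0.52 (edgeR adjusted p = 0.0275), and Tbx3 by 1.69 ± 0.34 (edgeR adjusted p = 0.0235). Ctsd, the cathepsin D gene, changed by 0.98 ± 0.26 (edgeR adjusted p = 0.0479), from -0.06 at D0 to 0.92 at D8. The call of Ctsd was lost with DESeq2's size factors, total counts, the filter of 20 counts or the replicate block (edgeR adjusted p = 0.0588, 0.0755, 0.0571 and 0.0698), that of Klf5 with total counts (0.0651) and that of Klf4 with no filter (0.0625). Leaving out each of the 10 libraries in turn ended the call 5 times for Gata4, 7 for Klf5, 8 for Klf4, 6 for Tbx3 and 8 for Ctsd, while the sign stayed positive throughout. Groups of 2 or 3 libraries are too small for a check of single outlying samples.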

How the results depend on the processing

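For the members in cells, all 3 log2 differences at D8 kept their sign under every alternative run. Leaving out 1 library gave 3.76 to 6.42 for Gkn1, 3.73 to 6.37 for Gkn2 and 3.55 to 4.52 for Pga5, with the tops of the gastrokines without WT replicate 2. The bounds over D0 ran from 5.92 to 36.5 for Gkn1 and from 8.88 to 54.2 for Gkn2 in WT, and from 795 to 1842 for Gkn2 in KO. The number of genes called varied more. At D0 it was 40, against 444 with DESeq2, 25 with total counts, 70 with no filter, 2033 with the compared groups alone and 3 to 15 without 1 library. At D8 it was 3039, against 705 with the compared groups alone and 777 to 5463 without 1 library. It was 777 without WT replicate 1, 1277 without WT replicate 2, 1762 without KO replicate 3 and 5463 without KO replicate 1. For the difference between days it was 843, against 1780 with DESeq2 and 7 to 3591 without 1 library. The cause was not tested.

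In embryos, Pga5 in AM over A passed with DESeq2, total counts and no filter, and ran from 4.22 to 11.07 without 1 library. With no filter, AM minus P was 3.52 and P minus A at E7.0 was -1.92, both then past the threshold. With the filter they were 3.45 and -1.94, so the log2 values hardly moved. ExE at E7.0 ran from -1.54 to 0.45 and ExE at E7.5 from 0.21 to 2.49. The tops of 11.07 and 2.49 come without A replicate 2, with the A side at 0 counts, and are no bounds. Of the 5 genes most like Gkn2, 3 were shared with a pseudocount of 0.5.

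The replicate numbers were not taken to pair libraries, since same-numbered deviations of KO at D0 and D8 correlated at -0.0528, 0.145 and 0.155. Same-numbered WT and KO libraries correlated at 0.254 and 0.140 at D0 and at 0.176 and 0.191 at D8, which is 2 pairs a day and too few to decide the pairing. In KO, 4 of 6 libraries correlated best with their own number. With the replicate number as a block, 6 genes were called at D0 and 2401 at D8, and the members stood at 4.52, 4.52 and 3.86. Pga5 in AM over A was 5.50 under the block. Total counts in place of TMM moved the median of all genes by -0.45 to 0.44 (log2) over the embryo contrasts, by -0.02 in AM minus A, and changed no call of Pga5. Counts of 8 and 12 for the gastrokines in WT limit their folds.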
